A study of Mus musculus with 12 samples.

Results

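The glycolysis and hypoxia genes are the genes of glucose uptake, of glycolysis and of lactate export, together with the hypoxia-inducible factor Hif1a, its prolyl hydroxylases and a set of its known targets. The list named 35 genes by function and was chosen with earlier results of these data known. Of these, 32 had a feature annotated with that symbol alone on the Affymetrix Mouse Gene 1.0 ST array, among 19938 gene symbols with such a feature. Gpi1, Gapdh and Eno1 had no feature with that symbol alone and were not analysed here. Gapdh is listed on 25 features together with other symbols. Where a gene had several features, the one with the highest mean over 12 arrays stands for it.

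The arrays measured RNA of ankle joints from 12 mice, 1 mouse per array and 3 per group. The groups were arthritic Mmp8-/- mice, arthritic Mmp8+/+ mice, control Mmp8-/- mice and control Mmp8+/+ mice, of the C57BL/6 strain. The mice are described as male. Arthritic mice, 6 to 8 weeks old at transfer, had received 150 µl of K/BxN serum, whose autoantibodies transfer arthritis, into the peritoneum on days 0 and 2, and joints were taken on day 7. Control mice are described as without arthritis, and their age is not given in the sources used here. The Mmp8 deletion was present in every cell of the animal. RNA was taken from the joint in bulk, and whether muscle, fat, skin or marrow was removed before is not described for the arrays. In such bulk RNA, fewer cells of a type and less RNA per cell cannot be told apart. Median log2 signals lay between 6.74 and 6.82 on the 12 arrays, and all 32 members passed the filter on signal (lowest mean 6.35).

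Cells break glucose down to pyruvate by glycolysis and, when oxygen is short or demand is high, export the product as lactate. The transcription factor HIF-1 raises the capacity of this route. With oxygen present, prolyl hydroxylases mark its alpha subunit for degradation, and without oxygen the subunit accumulates and binds a short core motif near genes of glucose transporters, glycolytic enzymes and survival factors. The inflamed joint is a classical low-oxygen tissue, and neutrophils and macrophages depend largely on glycolysis. The arrays read the Hif1a transcript and not the protein that oxygen controls.

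Short stretches before the start are shown for 5 of 9 members that were called in both genotypes and carry the core motif that HIF-1 is known to bind there. Pfkl, Pkm, Slc16a1 and Ddit4 met the same conditions and are not shown. The capitals mark ACGTG or GCGTG on either strand, which on the printed strand can read CACGT or CACGC. The sequences are RefSeq windows of GRCm38.p6, read along the strand of the gene.
Hif1a (chr12:73907757-73907841, plus strand): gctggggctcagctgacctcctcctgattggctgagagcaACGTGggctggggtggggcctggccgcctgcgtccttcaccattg
Pgk1 (chrX:106186929-106187013, plus strand): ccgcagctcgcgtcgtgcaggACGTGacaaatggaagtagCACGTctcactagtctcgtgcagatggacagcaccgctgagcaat
Pgam1 (chr19:41911743-41911827, plus strand): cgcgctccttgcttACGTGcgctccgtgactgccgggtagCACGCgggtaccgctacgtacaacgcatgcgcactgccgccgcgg
Slc16a3 (chr11:120949013-120949066, plus strand): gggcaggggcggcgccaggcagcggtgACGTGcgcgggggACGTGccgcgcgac
Bnip3 (chr7:138909507-138909581, minus strand): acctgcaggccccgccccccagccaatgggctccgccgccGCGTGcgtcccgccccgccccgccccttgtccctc
The first 4 genes were higher in arthritic joints and Bnip3 was lower. The last motif of each line stands 70 bases before the start of Hif1a, 131 before that of Pgk1, 88 before that of Pgam1, 14 before that of Slc16a3 and 35 before that of Bnip3, each counted from its first base. Windows of 300 bases (250 before and 50 after the start) were found for 30 members, and 29 of these held the motif in at least 1 window, against 46.7% of 27025 genes with a window. Counted by window, 79.1% of the 43 windows of members held the motif, against 43.8% of 32851 windows of all genes. All 12 members called higher in the comparison averaged over the genotypes held it, as did 6 of 6 called lower and 11 of 12 not called. The exception was Tpi1. Slc2a3 and Ndrg1 had no entry. The match is a description of letters, since genes known as hypoxia targets entered the list.

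The targeted gene and the sex-linked genes were read first, as checks of the labels. Mmp8 read 5.54, 4.64 and 4.67 on the log2 scale in arthritic Mmp8-/- mice and 10.21, 10.69 and 10.58 in arthritic Mmp8+/+ mice. It read 4.82, 10.65 and 5.05 in control Mmp8-/- mice and 10.30, 11.16 and 11.09 in control Mmp8+/+ mice. The array of control Mmp8-/- replicate 2 thus lay within the range of the Mmp8+/+ arrays. Replicates are numbered here in the order of the samples within each group. Although the mice are described as male, control Mmp8-/- replicate 1 and control Mmp8+/+ replicate 1 had Xist signal of 10.92 and 10.42 and Eif2s3y signal of 4.16 and 4.02. The other 10 arrays read 4.66 to 5.41 for Xist and 7.94 to 9.27 for Eif2s3y. Counts are therefore also given without the 2 arrays with Xist signal, and without these and control Mmp8-/- replicate 2, which leaves 1 control Mmp8-/- mouse whose spread is assumed to be that of the other groups.

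Arthritis moved the members in both directions. In Mmp8-/- mice 12 of 32 members passed an adjusted p of 0.05 in limma (37.5%, where 22.6% of all features tested did), 9 higher (8.30% of all features) and 3 lower (14.3%). In Mmp8+/+ mice 12 passed as well (37.5% against 19.6% of all features), again 9 higher (7.47%) and 3 lower (12.1%). Averaged over the genotypes, 20 passed (62.5% against 43.0%), 12 higher (19.8%) and 8 lower (23.2%). The median log2 fold change of the 32 members was 0.08 in Mmp8-/- mice, -0.02 in Mmp8+/+ mice and 0.03 in the average, beside -0.02, 0.01 and 0.00 over all features tested. Members called in both genotypes were Hif1a, Pfkl, Pgk1, Pgam1, Pkm, Slc16a1, Slc16a3 and Ddit4, which were higher, and Bnip3 and Ndrg1, which were lower. The share of all features called in both genotypes was not computed. On 12 members (37.5%, against 19.9% of all features) the 6 arthritic and the 6 control arrays did not overlap.

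Without the 2 arrays with Xist signal, 7 members passed in Mmp8-/- mice (21.9% of the members, beside 9.83% of all features in the same fit), 6 in Mmp8+/+ mice (18.8% beside 1916 of the 17450 features) and 13 in the average (40.6% beside 27.1%). Hif1a, Pgk1, Pgam1, Slc16a1 and Slc16a3 passed in both genotypes there, Ndrg1 and Kdm3a in Mmp8-/- mice and Pfkl in Mmp8+/+ mice. Without these and control Mmp8-/- replicate 2, 1 member passed in Mmp8-/- mice (3.12% beside 2.76% of all features), 4 in Mmp8+/+ mice (12.5% beside 9.74%) and 9 in the average (28.1% beside 15.4%). The 1 was Hif1a, and the 4 were Hif1a, Pfkl, Pgam1 and Slc16a1. The 9 were Hif1a, Pfkl, Pgk1, Pgam1, Pkm, Slc16a1 and Slc16a3, which were higher, and Slc2a3 and Ndrg1, which were lower. Leaving out 1 array at a time gave 7 to 13 members in Mmp8-/- mice and 6 to 13 in Mmp8+/+ mice, the 7 arising without arthritic Mmp8-/- replicate 1 (12.8% of all features were called then) or without control Mmp8-/- replicate 1 (10.6%) or 2 (13.7%). The 6 arose without arthritic Mmp8+/+ replicate 1 (12.2%), and 7 passed without replicate 2 (13.4%) or 3 (14.8%) of that group. The share of all features called thus fell in the same settings. These lower shares also apply to the counts of the other gene and marker lists given below without such arrays. Ordinary linear regression called 8 in Mmp8+/+ mice. For a comparison within 1 genotype, removing an array of the other genotype leaves each fold change as it is. Such a removal alters only the shared spread, so the removals that matter most are those within the genotype.

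**Figure D1:**
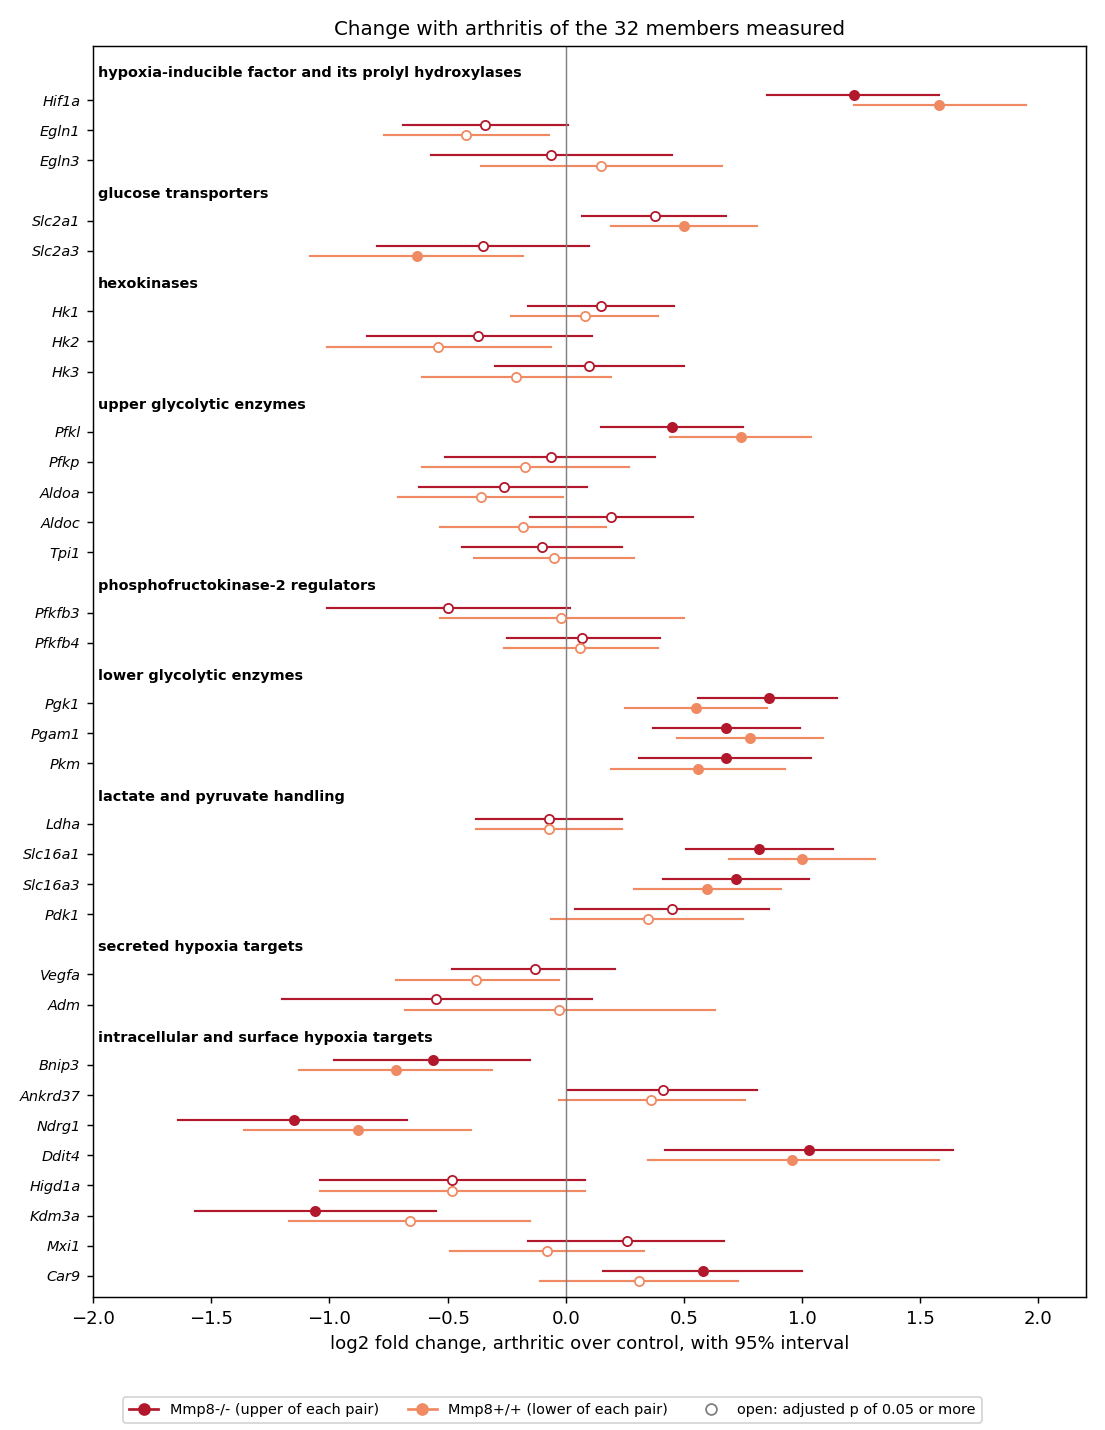
Log2 fold change of arthritic over control mice for the 32 members by role, with 95% intervals, Mmp8-/- above Mmp8+/+ in each pair and filled points where the adjusted p was under 0.05. Hif1a has the highest value in both genotypes (1.22 and 1.58) and Ndrg1 the lowest (-1.15 and -0.88).

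Hif1a, the oxygen-regulated subunit of HIF-1, changed more than any other member. Its log2 signal was 11.39, 11.91 and 11.56 in arthritic Mmp8-/- mice and 11.82, 11.64 and 11.70 in arthritic Mmp8+/+ mice, against 10.64, 10.17 and 10.40 in control Mmp8-/- mice and 10.21, 10.17 and 10.03 in control Mmp8+/+ mice. Every arthritic array lay above every control array. The log2 fold change was 1.22 (SE 0.17, adjusted p = 0.00021) in Mmp8-/- mice and 1.58 (SE 0.17, adjusted p = 2.23e-05) in Mmp8+/+ mice, which are 2.33-fold and 3.0-fold. Hif1a passed in both genotypes under each of the alternatives run, with an adjusted p of at most 0.0234 over limma and ordinary regression in Mmp8-/- mice and 0.00122 in Mmp8+/+ mice. Egln1, the main prolyl hydroxylase that marks HIF-1 alpha for degradation, had log2 signals of 9.14, 8.93 and 9.45 in arthritic Mmp8-/- mice and 9.10, 9.12 and 9.25 in arthritic Mmp8+/+ mice, against 9.62, 9.39 and 9.53 in control Mmp8-/- mice and 9.77, 9.47 and 9.49 in control Mmp8+/+ mice. It fell by 0.38 in the average (SE 0.12, adjusted p = 0.0169) and passed in neither genotype alone. The averaged call ended with quantile normalization, without the 2 arrays with Xist signal (adjusted p = 0.103) and without the 3 arrays (adjusted p = 0.17). Control Mmp8-/- replicate 2 at 9.39 lay below arthritic Mmp8-/- replicate 3 at 9.45. Egln3, a prolyl hydroxylase that HIF-1 itself induces, had log2 fold changes of -0.06 and 0.15 in Mmp8-/- and Mmp8+/+ mice and did not pass.

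Of 12 other genes of the oxygen-sensing system, Mmp8-/- mice had 0 higher and 2 lower, Mmp8+/+ mice 0 and 1, and the average 2 and 2. The list lay below the shares of all features called, which were 22.6%, 19.6% and 43.0% in these comparisons. Siah1a, a ubiquitin ligase that acts on the prolyl hydroxylases, was called lower in both genotypes. Its log2 signal was 6.53 to 6.84 on the arthritic arrays, against 7.16 to 7.58 on the control arrays, an averaged log2 fold change of -0.69 (SE 0.11). Hif1an, the asparagine hydroxylase that holds HIF-1 alpha inactive, was the other called lower in Mmp8-/- mice, at -0.82, and had -0.66 in the average. Epas1, which encodes HIF-2 alpha and did not pass, had log2 fold changes of -0.42 and -0.29 in Mmp8-/- and Mmp8+/+ mice. The 2 called higher in the average, Hif3a and Siah2 at 0.42 and 0.39 (SE 0.13 each), were no longer called without the 2 arrays with Xist signal. Hif1an, Epas1, Hif3a and Siah2 are named after their values were seen.

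Both glucose transporters on the list moved, in opposite directions. Slc2a1, the basal transporter of most cells and a classical HIF-1 target, read 9.69, 9.50 and 9.57 in arthritic Mmp8-/- mice and 9.78, 9.79 and 9.83 in arthritic Mmp8+/+ mice, against 9.01, 9.38 and 9.25 in control Mmp8-/- mice and 9.32, 9.36 and 9.22 in control Mmp8+/+ mice. The 6 arthritic arrays lay above the 6 controls, with 9.50 and 9.38 as the nearest values. Slc2a1 rose in Mmp8+/+ mice by 0.50 (SE 0.14, adjusted p = 0.0253) and had a log2 fold change of 0.38 (SE 0.14, adjusted p = 0.0721) in Mmp8-/- mice, and the genotypes' changes differed by -0.12 (95% interval -0.56 to 0.31). Slc2a3, a high-affinity transporter of neurons and leukocytes, had log2 signals of 9.11, 9.48 and 9.13 in arthritic Mmp8-/- mice and 8.86, 9.47 and 9.45 in arthritic Mmp8+/+ mice, against 9.18, 9.70 and 9.89 in control Mmp8-/- mice and 9.78, 9.85 and 10.06 in control Mmp8+/+ mice. The changes were -0.35 (SE 0.21, adjusted p = 0.233) in Mmp8-/- mice and -0.63 (SE 0.21, adjusted p = 0.048) in Mmp8+/+ mice, a difference of 0.28 (95% interval -0.35 to 0.92). Control Mmp8-/- replicate 1 at 9.18 lay among the arthritic arrays. Both calls in Mmp8+/+ mice ended without the 2 arrays with Xist signal (adjusted p = 0.0728 for Slc2a1 and 0.0631 for Slc2a3), and in 5 and 8 of the 12 removals of 1 array. The 5 all removed an Mmp8+/+ array, and the 8 included every Mmp8+/+ array.

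No hexokinase, the enzyme that traps glucose as its phosphate, was called higher. Hk2, the inducible form that is abundant in muscle and fat, had log2 signals of 9.04, 8.55 and 8.85 in arthritic Mmp8-/- mice and 8.58, 8.77 and 8.97 in arthritic Mmp8+/+ mice, against 9.04, 9.24 and 9.27 in control Mmp8-/- mice and 9.74, 8.76 and 9.44 in control Mmp8+/+ mice. The groups overlapped, and Hk2 fell by 0.45 in the average (SE 0.16, adjusted p = 0.0308), a call that ended under ordinary regression, mean centring, quantile normalization, without the 2 arrays with Xist signal and in 7 of the 12 removals of 1 array. Hk3, the leukocyte form, had log2 fold changes of 0.10 and -0.21 in Mmp8-/- and Mmp8+/+ mice. Hk1 had 0.15 and 0.08. The Hk1 feature with the highest mean lists 1 accession that recurs on 17 other features, 16 of them also annotated Rpl17, and which gene it reads cannot be told apart here. The Hk1 feature with a RefSeq mRNA gave 0.10 and 0.13 and did not pass either.

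In upper glycolysis, 1 of 5 members measured was called, the same in both genotypes. That is near the 22.6% and 19.6% of all features called in Mmp8-/- and Mmp8+/+ mice. Pfkl, the liver-type subunit of phosphofructokinase at the committed step, had log2 signals of 8.51, 8.44 and 8.66 in arthritic Mmp8-/- mice and 8.70, 8.65 and 8.77 in arthritic Mmp8+/+ mice, against 8.03, 8.03 and 8.19 in control Mmp8-/- mice and 7.81, 8.05 and 8.05 in control Mmp8+/+ mice. No arthritic array overlapped a control array. The log2 fold changes were 0.45 (SE 0.14, adjusted p = 0.0347) in Mmp8-/- mice and 0.74 (SE 0.14, adjusted p = 0.00229) in Mmp8+/+ mice. The call in Mmp8+/+ mice held under each alternative run, and that in Mmp8-/- mice was lost without the 2 arrays with Xist signal (0.42, adjusted p = 0.129) and in 4 of the 12 removals of 1 array. These 4 all removed an Mmp8-/- array. Aldoa, the aldolase of muscle and most other tissues, had log2 signals of 12.34, 12.07 and 12.49 in arthritic Mmp8-/- mice and 12.20, 12.25 and 12.47 in arthritic Mmp8+/+ mice, against 12.68, 12.60 and 12.41 in control Mmp8-/- mice and 12.90, 12.57 and 12.52 in control Mmp8+/+ mice. The groups overlapped in Mmp8-/- mice, and Aldoa fell by 0.31 in the average (SE 0.12, adjusted p = 0.0443), a call lost in 8 of the 12 removals of 1 array. Pfkp, Aldoc and Tpi1 had averaged log2 fold changes of -0.12, 0.01 and -0.08 and did not pass. Pfkfb3 and Pfkfb4, which make the activator of phosphofructokinase, had -0.26 and 0.07 and did not pass.

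On the features with the highest mean, all 3 lower glycolytic enzymes measured were called higher in both genotypes, where 8.30% and 7.47% of all features were in Mmp8-/- and Mmp8+/+ mice. Pkm was not called on its feature that lists a RefSeq mRNA. Pgk1, phosphoglycerate kinase, which makes the first ATP of the pathway, read 12.22, 12.32 and 12.25 in arthritic Mmp8-/- mice and 12.10, 12.18 and 12.29 in arthritic Mmp8+/+ mice, against 11.35, 11.44 and 11.43 in control Mmp8-/- mice and 11.68, 11.46 and 11.77 in control Mmp8+/+ mice. The lowest arthritic array at 12.10 lay above the highest control array at 11.77. Pgk1 rose by 0.86 (SE 0.14, adjusted p = 0.000791) in Mmp8-/- mice and 0.55 (SE 0.14, adjusted p = 0.0128) in Mmp8+/+ mice. Its 2 dimmer features, whose values equal each other, gave 0.95 (adjusted p = 0.0161) and 0.38 (adjusted p = 0.298). The Pgk1 call in Mmp8+/+ mice was lost in 2 of the 12 removals of 1 array and with the mean of its features. Pgam1, the phosphoglycerate mutase of non-muscle tissues, had log2 signals of 10.41, 10.31 and 10.66 in arthritic Mmp8-/- mice and 10.63, 10.47 and 10.47 in arthritic Mmp8+/+ mice, against 9.67, 9.75 and 9.92 in control Mmp8-/- mice and 9.73, 9.76 and 9.75 in control Mmp8+/+ mice. The control Mmp8+/+ mice were nearly alike, and every arthritic array lay above every control array. Pgam1 rose by 0.68 (SE 0.15, adjusted p = 0.00524) in Mmp8-/- mice and 0.78 (SE 0.15, adjusted p = 0.00196) in Mmp8+/+ mice, and its other features rose by 0.76 and 0.71 in Mmp8-/- mice and 0.72 and 0.63 in Mmp8+/+ mice.

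Pkm, the pyruvate kinase of most tissues, depended on the feature. The one with the higher mean had log2 signals of 11.98, 11.52 and 11.67 in arthritic Mmp8-/- mice and 11.71, 11.66 and 11.73 in arthritic Mmp8+/+ mice, against 10.99, 10.92 and 11.24 in control Mmp8-/- mice and 11.32, 10.84 and 11.24 in control Mmp8+/+ mice. It rose by 0.68 (SE 0.17, adjusted p = 0.0137) in Mmp8-/- mice and 0.56 (SE 0.17, adjusted p = 0.0332) in Mmp8+/+ mice, with no overlap between arthritic and control arrays. It lists 2 accessions, none a RefSeq mRNA. The feature that lists a RefSeq mRNA read 10.40 to 11.01 on the arthritic arrays and 10.15 to 11.42 on the control arrays, with log2 fold changes of 0.23 (adjusted p = 0.537) in Mmp8-/- mice and -0.06 (adjusted p = 0.889) in Mmp8+/+ mice. Control Mmp8+/+ replicate 1 was the highest of the 12 there. The Pkm call thus rests on 1 of its features, and there it was lost in 3 and 4 of the 12 removals of 1 array in Mmp8-/- and Mmp8+/+ mice. Each of these took out an array of the genotype compared. Processed copies of several of these enzymes are common in the mouse genome, and probes that read a copy cannot be told from those that read the gene here.

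**Figure D2:**
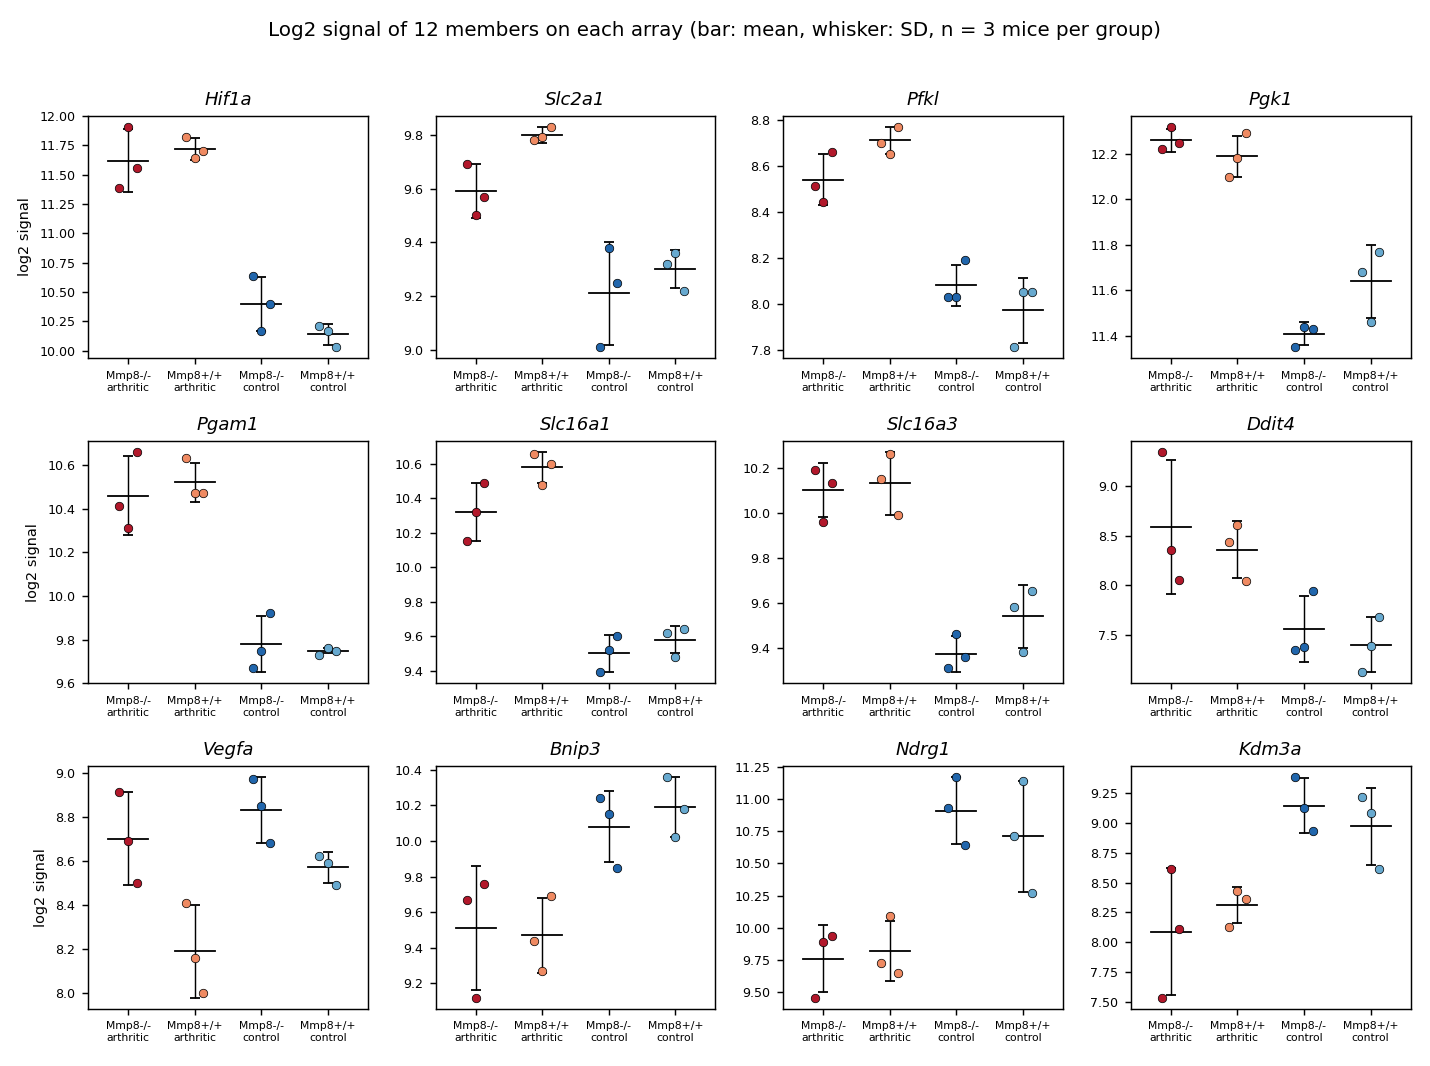
Log2 signal of 12 members on each of the 12 arrays by group, with the group mean and SD (n = 3 mice). Arthritic and control arrays do not overlap for Hif1a, Slc2a1, Pfkl, Pgk1, Pgam1, Slc16a1, Slc16a3 and Ddit4, which are higher, or for Bnip3, Ndrg1 and Kdm3a, which are lower, whereas Vegfa overlaps.

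Both lactate carriers rose, while lactate dehydrogenase did not pass. Slc16a1, the widespread monocarboxylate carrier MCT1, had log2 signals of 10.15, 10.32 and 10.49 in arthritic Mmp8-/- mice and 10.66, 10.48 and 10.60 in arthritic Mmp8+/+ mice, against 9.39, 9.52 and 9.60 in control Mmp8-/- mice and 9.62, 9.48 and 9.64 in control Mmp8+/+ mice. The lowest arthritic array at 10.15 lay well above the highest control array at 9.64. The log2 fold changes were 0.82 (SE 0.15, adjusted p = 0.00146) in Mmp8-/- mice and 1.0 (SE 0.15, adjusted p = 0.000295) in Mmp8+/+ mice, or 1.76-fold and 1.99-fold. Slc16a3, the carrier MCT4 that exports lactate from glycolytic cells, read 10.19, 9.96 and 10.13 in arthritic Mmp8-/- mice and 10.15, 10.26 and 9.99 in arthritic Mmp8+/+ mice, against 9.31, 9.46 and 9.36 in control Mmp8-/- mice and 9.58, 9.38 and 9.65 in control Mmp8+/+ mice. Again no arthritic array reached down to a control array. Slc16a3 rose by 0.72 (SE 0.15, adjusted p = 0.00355) in Mmp8-/- mice and 0.60 (SE 0.15, adjusted p = 0.0105) in Mmp8+/+ mice. Ldha, which turns pyruvate into lactate, had a log2 fold change of -0.07 in both genotypes (95% interval -0.38 to 0.24 in each). Pdk1, the kinase that shuts pyruvate out of mitochondria and a HIF-1 target, had log2 signals of 8.92, 8.81 and 8.35 in arthritic Mmp8-/- mice and 8.45, 8.79 and 8.98 in arthritic Mmp8+/+ mice, against 8.17, 8.19 and 8.37 in control Mmp8-/- mice and 8.58, 8.15 and 8.45 in control Mmp8+/+ mice. The groups overlapped in both genotypes, and Pdk1 rose by 0.40 in the average (SE 0.14, adjusted p = 0.0285) without passing in either genotype, a call lost in 7 of the 12 removals of 1 array.

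Of 14 other genes of pyruvate entry into mitochondria, Mmp8-/- mice had 0 higher and 6 lower, Mmp8+/+ mice 0 and 6, and the average 0 and 9. Beside them, 14.3%, 12.1% and 23.2% of all features tested were called lower. Pcx, pyruvate carboxylase, read 7.27 to 7.74 on the arthritic arrays and 8.21 to 9.27 on the controls, an averaged log2 fold change of -1.55 (SE 0.16). Slc16a7, the high-affinity carrier MCT2, had -0.98 (SE 0.17) and Pdk2, another pyruvate dehydrogenase kinase, -0.78 (SE 0.15). These monocarboxylate carriers thus moved in opposite directions, with Slc16a1 and Slc16a3 higher and Slc16a7 lower. The list kept 8 lower in the average without the 2 arrays with Xist signal and 5 without the 3 arrays. Leaving out 1 array gave 2 to 7 lower in Mmp8-/- mice, 3 to 7 in Mmp8+/+ mice and 8 to 9 in the average. Within the genotypes its numbers lower were 2 and 3 without the 2 arrays, and 1 and 3 without the 3 arrays, in Mmp8-/- and Mmp8+/+ mice.

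Neither secreted hypoxia target passed. Vegfa, the angiogenic factor, had log2 signals of 8.91, 8.69 and 8.5 in arthritic Mmp8-/- mice and 8.41, 8.16 and 8.00 in arthritic Mmp8+/+ mice, against 8.97, 8.85 and 8.68 in control Mmp8-/- mice and 8.62, 8.59 and 8.49 in control Mmp8+/+ mice. The arthritic Mmp8+/+ mice lay below every control, while the Mmp8-/- groups overlapped. Its log2 fold changes with arthritis were -0.13 (SE 0.16, adjusted p = 0.565) in Mmp8-/- mice and -0.38 (SE 0.16, adjusted p = 0.112) in Mmp8+/+ mice, and in the average -0.25 (SE 0.11, adjusted p = 0.0838). That averaged value passed with array weights (-0.30, adjusted p = 0.0439) and without arthritic Mmp8-/- replicate 1 (-0.31, adjusted p = 0.0445). Adm, which encodes the vasodilator adrenomedullin, had -0.55 and -0.03 in Mmp8-/- and Mmp8+/+ mice, with an SD of 0.66 in arthritic Mmp8-/- mice.

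Targets inside the cell and at its surface split. Ddit4, which restrains mTOR in stress and low oxygen, had log2 signals of 9.35, 8.36 and 8.05 in arthritic Mmp8-/- mice and 8.44, 8.61 and 8.04 in arthritic Mmp8+/+ mice, against 7.35, 7.38 and 7.94 in control Mmp8-/- mice and 7.12, 7.39 and 7.68 in control Mmp8+/+ mice. Arthritic Mmp8-/- replicate 1 was the highest array, and arthritic Mmp8+/+ replicate 3 at 8.04 lay just above control Mmp8-/- replicate 3 at 7.94. Ddit4 rose by 1.03 (SE 0.29, adjusted p = 0.0207) in Mmp8-/- mice and 0.96 (SE 0.29, adjusted p = 0.0295) in Mmp8+/+ mice. Both calls ended without the 2 arrays with Xist signal (adjusted p = 0.0919 in Mmp8-/- mice and 0.131 in Mmp8+/+ mice). They also ended under ordinary regression, and in 3 and 4 of the 12 removals of 1 array in Mmp8-/- and Mmp8+/+ mice. Car9, a carbonic anhydrase at the cell surface and a marker of hypoxia in tumours, read 6.88, 6.54 and 6.34 in arthritic Mmp8-/- mice and 6.60, 6.87 and 6.22 in arthritic Mmp8+/+ mice, against 6.21, 5.95 and 5.88 in control Mmp8-/- mice and 6.09, 6.19 and 6.47 in control Mmp8+/+ mice. It rose by 0.58 (SE 0.20, adjusted p = 0.0475) in Mmp8-/- mice and had a change of 0.31 (SE 0.20, adjusted p = 0.273) in Mmp8+/+ mice, where the groups overlapped, and the genotypes' changes differed by 0.27 (95% interval -0.33 to 0.86). The Mmp8-/- call ended without the 2 arrays with Xist signal (adjusted p = 0.0775) and in 8 of the 12 removals of 1 array. The 8 included every control Mmp8-/- array and arthritic Mmp8-/- replicates 1 and 2. Ankrd37, a small ankyrin-repeat protein induced by HIF-1, had log2 signals of 6.8, 6.52 and 6.58 in arthritic Mmp8-/- mice and 6.58, 6.61 and 6.42 in arthritic Mmp8+/+ mice, against 6.03, 6.19 and 6.45 in control Mmp8-/- mice and 6.43, 5.77 and 6.32 in control Mmp8+/+ mice. The groups did not overlap in Mmp8-/- mice and overlapped in Mmp8+/+ mice. It rose by 0.39 in the average (SE 0.13, adjusted p = 0.0286), a call lost in 6 of the 12 removals, and passed in neither genotype.

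Several targets fell. Ndrg1, a stress protein of differentiated epithelium and Schwann cells that hypoxia induces, had log2 signals of 9.46, 9.89 and 9.94 in arthritic Mmp8-/- mice and 9.73, 10.09 and 9.65 in arthritic Mmp8+/+ mice, against 10.93, 11.17 and 10.64 in control Mmp8-/- mice and 10.71, 11.14 and 10.27 in control Mmp8+/+ mice. The highest arthritic array at 10.09 lay below the lowest control array at 10.27. The log2 fold changes were -1.15 (SE 0.23, adjusted p = 0.00269) in Mmp8-/- mice and -0.88 (SE 0.23, adjusted p = 0.0133) in Mmp8+/+ mice, or 0.449 and 0.542 times the control. Bnip3, which directs removal of mitochondria under low oxygen, read 9.67, 9.12 and 9.76 in arthritic Mmp8-/- mice and 9.44, 9.27 and 9.69 in arthritic Mmp8+/+ mice, against 10.24, 10.15 and 9.85 in control Mmp8-/- mice and 10.36, 10.02 and 10.18 in control Mmp8+/+ mice. The groups did not overlap, with 9.76 and 9.85 as the nearest values. It fell in both genotypes, with changes of -0.56 (SE 0.19, adjusted p = 0.0481) in Mmp8-/- mice and -0.72 (SE 0.19, adjusted p = 0.0173) in Mmp8+/+ mice, and its second feature gave -0.89 and -0.88. In Mmp8-/- mice the call on the first feature held in 6 of 24 alternatives. It was lost in 10 of the 12 removals of 1 array and under ordinary regression, mean centring, quantile normalization and array weights. Both Bnip3 calls on the first feature ended without the 2 arrays with Xist signal (adjusted p = 0.184 in Mmp8-/- mice and 0.0899 in Mmp8+/+ mice), and so did the Ndrg1 call in Mmp8+/+ mice (adjusted p = 0.055). That Ndrg1 call also ended under ordinary regression. In Mmp8+/+ mice the Bnip3 and Ndrg1 calls were each lost in 3 of the 12 removals of 1 array.

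Kdm3a, a histone demethylase that HIF-1 induces, had log2 signals of 7.54, 8.61 and 8.11 in arthritic Mmp8-/- mice and 8.13, 8.43 and 8.36 in arthritic Mmp8+/+ mice, against 9.38, 9.12 and 8.93 in control Mmp8-/- mice and 9.21, 9.08 and 8.61 in control Mmp8+/+ mice. The highest arthritic and the lowest control value were both 8.61 after rounding, in arthritic Mmp8-/- replicate 2 and control Mmp8+/+ replicate 3. It fell by 1.06 (SE 0.24, adjusted p = 0.00706) in Mmp8-/- mice and had a change of -0.66 (SE 0.24, adjusted p = 0.0661) in Mmp8+/+ mice, and the genotypes' changes differed by -0.40 (95% interval -1.12 to 0.33). Higd1a, a mitochondrial protein induced by low oxygen, had log2 signals of 6.92, 6.18 and 7.57 in arthritic Mmp8-/- mice and 7.25, 6.91 and 7.19 in arthritic Mmp8+/+ mice, against 7.48, 7.15 and 7.49 in control Mmp8-/- mice and 7.69, 7.40 and 7.71 in control Mmp8+/+ mice. The arthritic Mmp8-/- mice spread widely (SD 0.70) and overlapped their controls, and Higd1a fell by 0.48 in the average (SE 0.19, adjusted p = 0.0492), a call lost in 10 of the 12 removals of 1 array. Its second feature fell by 0.56 in the average (adjusted p = 0.00524). Mxi1, a Myc antagonist, had log2 fold changes of 0.26 and -0.08 in Mmp8-/- and Mmp8+/+ mice and did not pass.

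Other known hypoxia targets, 27 genes outside the 32 members, leaned upward. Mmp8-/- mice had 8 higher and 4 lower, Mmp8+/+ mice 9 and 5, and the average 15 and 5, with medians of 0.18, 0.48 and 0.38. Among all features tested, 8.30%, 7.47% and 19.8% were called higher, and 14.3%, 12.1% and 23.2% lower. Car12, another surface carbonic anhydrase, read 8.21 to 9.64 on the arthritic arrays and 5.22 to 6.5 on the controls, with log2 fold changes of 2.77 in Mmp8-/- mice and 2.96 in Mmp8+/+ mice (averaged SE 0.23). Angptl4, a secreted inhibitor of lipoprotein lipase, had 2.01 and 1.96 (averaged SE 0.19). Hmox1, the inducible haem oxygenase, had 1.23 and 0.64 (averaged SE 0.12). Targets that fell in both genotypes were Bnip3l, Ppp1r3c, Kdm4b and Ets1, with averaged log2 fold changes of -0.54, -0.68, -0.53 and -0.57, named after their values were seen. Bnip3l, like Bnip3, acts in the removal of mitochondria. Without the 2 arrays with Xist signal, Mmp8-/- mice had 3 higher and 0 lower, and Mmp8+/+ mice 9 and 1. In the average 13 and 4 passed then, and 10 and 3 without the 3 arrays. Leaving out 1 array gave 4 to 8 higher and 0 to 4 lower in Mmp8-/- mice, the 0 without control Mmp8-/- replicate 1, and 6 to 11 higher and 2 to 6 lower in Mmp8+/+ mice. Several of these genes are also known to answer to inflammation or to lipid signals.

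Muscle forms stood lowest among the glycolytic isoenzymes outside the list. Of 13 tested, Mmp8-/- mice had 0 higher and 6 lower, Mmp8+/+ mice 1 and 5, and the average 2 and 6, with medians of 0.05, -0.36 and -0.12. The shares of all features called lower were 14.3%, 12.1% and 23.2%. Eno3, the muscle enolase, had log2 signals of 8.66, 7.76 and 10.35 in arthritic Mmp8-/- mice and 8.52, 8.56 and 9.47 in arthritic Mmp8+/+ mice, against 11.58, 10.97 and 11.05 in control Mmp8-/- mice and 12.31, 10.86 and 11.60 in control Mmp8+/+ mice. It was lower in each arthritic mouse than in any control mouse, with log2 fold changes of -2.27 in Mmp8-/- mice (adjusted p = 0.00643) and -2.74 in Mmp8+/+ mice (adjusted p = 0.00176). Pgam2, the muscle phosphoglycerate mutase, had -1.54 and -1.97 (averaged SE 0.31), and Pfkm, the muscle phosphofructokinase, -1.53 and -1.72 (averaged SE 0.26). At the mutase step Pgam1 had 0.68 and 0.78, and at phosphofructokinase Pfkl had 0.45 and 0.74 and Pfkp, which did not pass, -0.06 and -0.17. Bpgm, plotted at the mutase step too, was called lower in both genotypes, at -0.76 and -1.19. Pfkfb2 had -0.69 in Mmp8-/- mice, where it passed, and -0.54 in Mmp8+/+ mice, where it did not. Both are named after their values were seen. Falls were thus not confined to Eno3, Pgam2 and Pfkm. Eno2, the neuronal enolase and also named after its value was seen, had 0.05 and 0.17 and did not pass. Slc2a4, the insulin-responsive transporter of muscle and fat and named after its value was seen, had -1.39 and -1.49 (averaged SE 0.15). The 2 called higher in the average, also named after their values were seen, were Gapdhs, the sperm form of glyceraldehyde phosphate dehydrogenase, and the transporter Slc2a6, both at 0.41. Without the 3 arrays with label doubts 1 isoenzyme was still lower in Mmp8-/- mice, 5 in Mmp8+/+ mice and 5 in the average.

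**Figure D3:**
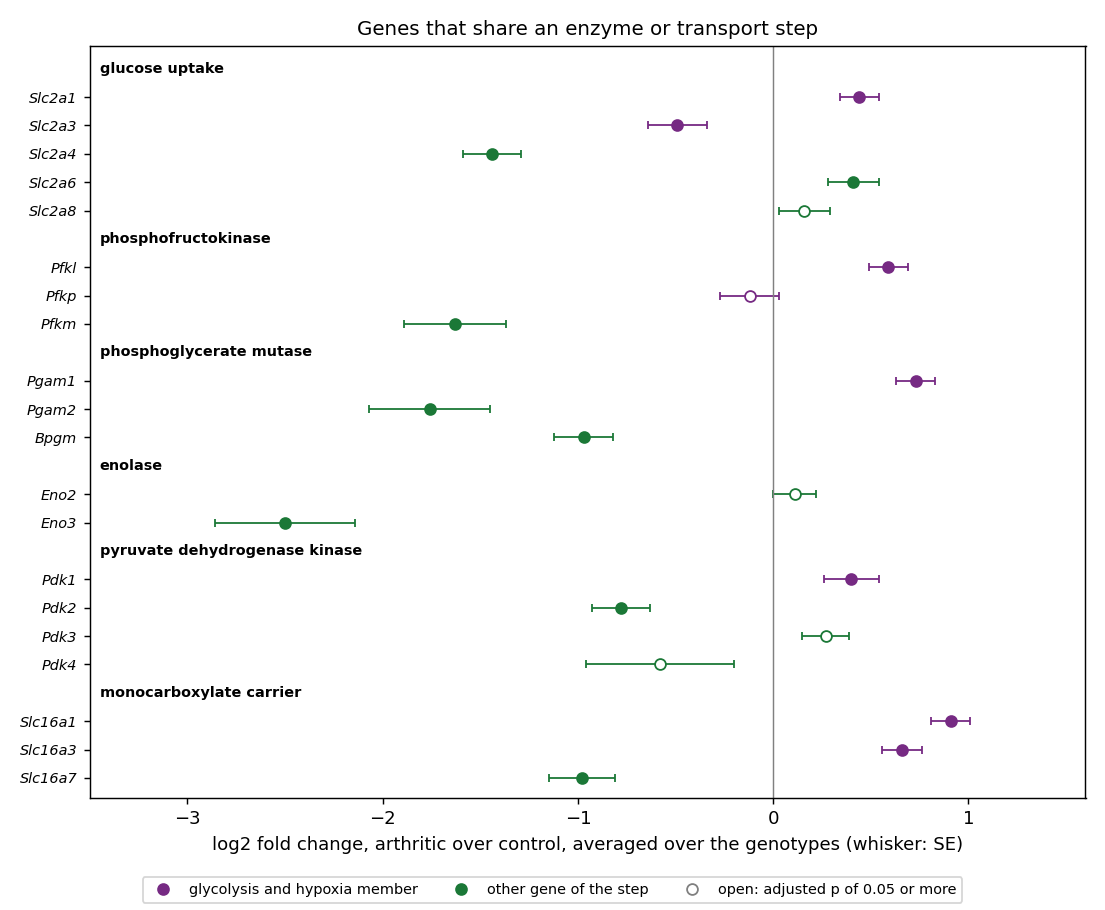
Averaged log2 fold change of arthritic over control mice, with SE, for genes that share an enzyme or transport step, filled where the adjusted p was under 0.05. Pfkl, Pgam1, Slc16a1 and Slc16a3 lie to the right of 0, and Pfkm, Pgam2, Bpgm, Eno3, Slc2a4 and Slc16a7 to the left.

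Glycogen genes fell as well. Of 14 tested, Mmp8-/- mice had 0 higher and 7 lower, Mmp8+/+ mice 1 and 10, and the average 1 and 12, with medians of -0.60, -0.65 and -0.65. For all features tested, the shares called lower were 14.3%, 12.1% and 23.2%. Pygm, the muscle glycogen phosphorylase, read 8.35 to 10.25 on the arthritic arrays and 10.86 to 11.92 on the controls, an averaged log2 fold change of -2.05 (SE 0.30). Phkg1, the muscle catalytic subunit of phosphorylase kinase, had -1.27 (SE 0.22), and Gbe1, the branching enzyme, -1.10 (SE 0.14). Leaving out 1 array gave 5 to 10 lower in each genotype and 12 to 13 in the average. Numbers lower were 5 and 4 in Mmp8-/- and Mmp8+/+ mice without the 2 arrays with Xist signal, and 0 and 3 without the 3 arrays.

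Muscle transcripts were also lower in arthritic mice. Of 18 skeletal muscle markers, Mmp8-/- mice had 0 higher and 8 lower, Mmp8+/+ mice 0 and 15, and the average 0 and 17, with medians of -1.07, -1.60 and -1.41. Beside this and the other marker lists, 14.3%, 12.1% and 23.2% of all features were called lower, and 8.30%, 7.47% and 19.8% higher. Without the 3 arrays with label doubts 1, 5 and 7 were lower, and leaving out 1 array gave 5 to 10, 6 to 17 and 15 to 18, the 6 without control Mmp8+/+ replicate 1. Their mean log2 signal was 8.82 to 10.06 in arthritic Mmp8-/- mice and 8.68 to 10.12 in arthritic Mmp8+/+ mice, against 10.44 to 10.86 in control Mmp8-/- mice and 10.46 to 11.60 in control Mmp8+/+ mice. Control Mmp8+/+ replicate 1, 1 of the arrays with Xist signal, was the highest. Arthritic Mmp8-/- replicate 3 and arthritic Mmp8+/+ replicate 3 were the nearest to the controls. In these 2 arrays Eno3, Pgam2 and Pfkm were also the highest of their groups. The same held for Bpgm, Slc2a4 and Aldoa, whereas Pfkfb2 was highest in replicate 2 of each arthritic group. What these genes share was not tested. Adipocyte markers fell too, 10 of 11 in each genotype, with a mean of 7.39 to 8.00 on the arthritic arrays and 8.98 to 10.08 on the controls. Macrophage markers were higher in 5 and lower in 2 of 13 in Mmp8-/- mice and higher in 4 and lower in 1 in Mmp8+/+ mice, with a mean of 9.83 to 10.26 on the arthritic arrays and 9.59 to 9.81 on the controls. The means of the neutrophil markers overlapped, at 10.06 to 10.75 on the arthritic arrays and 9.56 to 10.66 on the controls, while single markers went both ways. Of 14, Mmp8-/- mice had 3 higher and 0 lower, Mmp8+/+ mice 3 and 4, and the average 5 and 4. The receptors Il1r2, Cxcr2 and Csf3r had averaged log2 fold changes of 2.00, 1.53 and 1.29, and the granule proteins Ltf, Camp and Ngp and the surface protein Cd177 had -0.98, -0.89, -0.78 and -0.77, all named after their values were seen. The 4 lower in Mmp8+/+ mice became 0 without arthritic Mmp8+/+ replicate 1. The lowest mean of these 4 lists on any array was 7.39, and the part of these cells in the members' changes was not tested. Pgk1, Pgam1, Slc16a1 and Slc16a3 were higher, and muscle and fat transcripts lower, on the 6 arthritic arrays. Both follow the same split of groups, and a link between them was not tested.

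**Figure D4:**
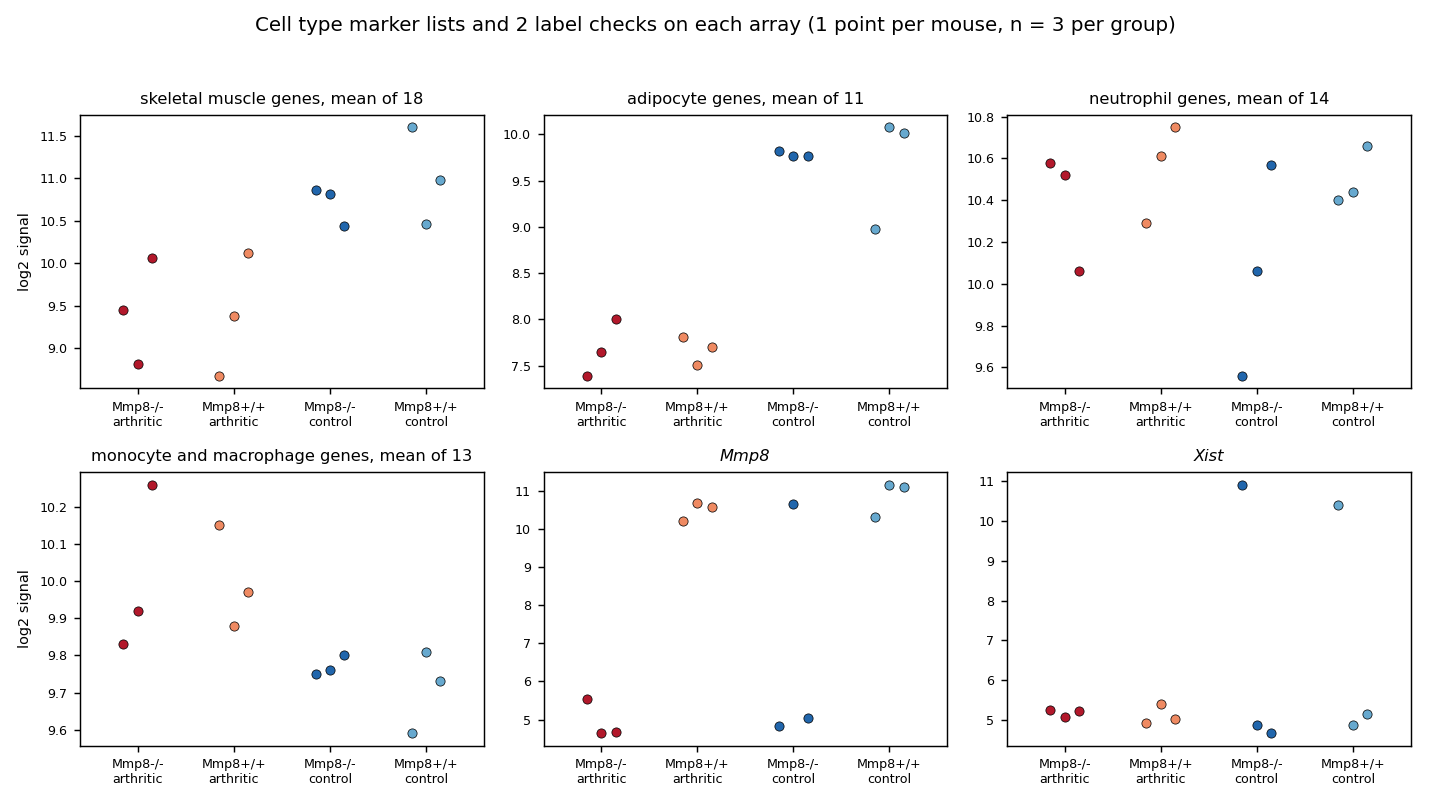
Mean log2 signal of 4 cell type marker lists, and log2 signals of the label checks Mmp8 and Xist, for each mouse by group. Muscle and adipocyte means lie lower on the arthritic arrays, Mmp8 is at 10.65 in control Mmp8-/- replicate 2, and Xist is high on 2 control arrays.

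No member was called between the genotypes. In arthritic mice 0 of 32 members passed between Mmp8-/- and Mmp8+/+ mice in limma (0.00573% of all features, which is Krtdap, an epidermal protein and the 1 feature called), in control mice 0 (0% of all features) and in the interaction of genotype and arthritis 0 (0%). Ordinary linear regression called 0 members and 0 features in all 3. The deleted gene Mmp8 was itself not called, at -5.54 in arthritic mice (SE 1.02, adjusted p = 0.347 in limma). Its SD was 3.3 in control Mmp8-/- mice, where replicate 2 read 10.65, and the fit shares 1 spread over the groups. A count of 0 thus does not show equal levels. At an unadjusted p under 0.05 there were 1, 0 and 0 members, and 504, 567 and 555 of the 17450 features. The 1 was Vegfa, which averaged 8.70 ± 0.21 (SD, n = 3) in arthritic Mmp8-/- mice and 8.19 ± 0.21 in arthritic Mmp8+/+ mice. The difference was 0.51 (95% interval 0.16 to 0.85, adjusted p = 1 in limma), and the ranges of 8.5 to 8.91 and 8.00 to 8.41 did not overlap. For control mice the Vegfa difference between Mmp8-/- and Mmp8+/+ was 0.26 (95% interval -0.08 to 0.61). The interaction, as the change in Mmp8-/- minus that in Mmp8+/+ mice, ran from -0.52 for Adm (95% interval -1.44 to 0.41) to 0.38 for Aldoc (95% interval -0.12 to 0.87). For Hif1a it was -0.37 (95% interval -0.88 to 0.15). These intervals allow differences of the size of many of the arthritis changes themselves. Comparisons with control Mmp8-/- mice draw in part on replicate 2 of that group, which had Mmp8 signal.

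The spread between mice was small beside the leading changes. The SD over 3 mice had a median over the members of 0.21 for arthritic Mmp8-/-, 0.15 for arthritic Mmp8+/+, 0.16 for control Mmp8-/- and 0.18 for control Mmp8+/+ mice. The highest SDs were those of Higd1a (0.70), Ddit4 (0.68) and Adm (0.66), all in arthritic Mmp8-/- mice. Leaving out 1 array ended an averaged call for 6 of the 20 members called, namely Hk2, Aldoa, Pdk1, Ankrd37, Higd1a and Car9.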

How the data were processed

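Per the labels and the study's methods, RNA of pulverized ankle joints was hybridised to Affymetrix Mouse Gene 1.0 ST arrays. The authors normalized 12 arrays together by Robust Multichip Average, and the deposited values are log2 signals of 28853 features. The genome build is not given in the sources used here. Genes were named from the platform annotation, and 21789 features had 1 symbol. The 17450 of these with a mean log2 signal of at least 5.3 entered a linear model over all 12 arrays (limma 3.58.1, R 4.3.3) that held a mean for each of 4 groups, with no covariate, two-sided tests and Benjamini-Hochberg adjustment at 0.05 over all of them. Every adjusted p is from this fit unless another is named. The fit was also run on simulated data with independent noise and a small part of the features changed in 1 group. That simulation held no mislabelled arrays, so it does not bear on the label doubts. No column of values was left unused (0).

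Named with every array's value were members called in any arthritis comparison and Hif1a, Vegfa and Slc2a1, and for other pathway lists up to 3 genes with the largest averaged change among those called in both genotypes. The members, gene lists and marker lists were chosen with earlier results of these data known. Each array is 1 mouse, and their number limits the precision. Alternatives were ordinary regression, an intensity trend, array weights, fits on only the arrays compared, other filters, centring, quantile normalization, other features per gene, leaving out each array, and leaving out the arrays with label doubts.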

Additional observations from a re-analysis of the deposited data

How the results depend on the processing

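Without the 2 arrays with Xist signal, the members called numbered 7 in Mmp8-/- mice, 6 in Mmp8+/+ mice and 13 in the average, against 12, 12 and 20 with all arrays. Without these and control Mmp8-/- replicate 2 they numbered 1, 4 and 9. The share of all features called was 9.83%, 1916 of 17450 and 27.1% without the 2 arrays and 2.76%, 9.74% and 15.4% without the 3, against 22.6%, 19.6% and 43.0% with all arrays. Leaving out 1 array gave 7 to 13 in Mmp8-/- mice, 6 to 13 in Mmp8+/+ mice and 14 to 20 in the average, and the other settings gave 9 to 12, 8 to 15 and 16 to 20. The genotype comparisons and the interaction gave 0 members under every alternative run. Of 1056 values of named members under the alternatives, 869 kept their direction and side of the threshold, 184 kept the direction and lost the call, 2 gained it, and 1 turned. The 1 was Pkm in Mmp8+/+ mice at -0.06 (adjusted p = 0.889) with the feature that lists a RefSeq mRNA, an alternative added after seeing the data, and the cause was not tested. Called under every setting were Hif1a in both genotypes and Pfkl, Pgam1 and Slc16a1 in Mmp8+/+ mice, and in the average Hif1a, Pfkl, Pgk1, Pgam1, Slc16a1, Slc16a3 and Ndrg1. No paired analysis was possible because the labels carry no replicate numbers shared between groups. With 3 mice a group, small changes and changes in dim features cannot be told from the spread.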

Other observations

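Neighbouring sugar pathways were read on the same arrays. Of 7 pentose phosphate genes tested, 0 were called in either genotype, and in the average H6pd and Pgls were higher, at 0.35 and 0.37 on the log2 scale, and Tkt lower, at -0.52, all named after their values were seen. Of 6 gluconeogenesis genes, Mmp8-/- mice had 0 higher and 1 lower, Mmp8+/+ mice 0 and 2, and the average 1 and 2. In the average 3 of 7 and 3 of 6 were thus called, where 43.0% of all features were. Pck1, the cytosolic carboxykinase of liver, kidney and fat, had log2 fold changes of -1.48 in Mmp8-/- mice and -1.15 in Mmp8+/+ mice.

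Marker lists of other cell types were read on the same arrays, as means of log2 signal. Erythroid markers lay between 6.43 and 7.60 on the arthritic arrays and between 6.90 and 8.88 on the controls. In Mmp8-/- mice 1 of 7 was lower, beside 14.3% of all features, and in Mmp8+/+ mice 5 of 7, beside 12.1%. Without arthritic Mmp8+/+ replicate 1 the 5 became 1, and leaving out 1 array gave 0 to 2 in Mmp8-/- mice and 1 to 7 in Mmp8+/+ mice. Osteoclast markers lay between 9.23 and 9.41 on the arthritic arrays, above the controls at 8.73 to 9.10. Fibroblast markers lay at 11.22 to 11.59 on the arthritic arrays and 11.16 to 11.45 on the controls. Chondrocyte markers lay at 8.16 to 8.77 on the arthritic arrays and 7.97 to 8.56 on the controls. Endothelial markers lay at 8.72 to 9.06 on the arthritic arrays and 8.94 to 9.33 on the controls. Epidermal markers lay at 7.47 to 7.89 in arthritic Mmp8-/- mice and 8.66 to 9.67 in arthritic Mmp8+/+ mice, against 7.66 to 9.44 on the control arrays.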
